A study of Mus musculus with 24 samples.

Results

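Mitochondrial transcription and translation factors are nuclear genes whose products copy mitochondrial DNA, transcribe it, stabilise its transcripts and translate them. The 10 genes described here (Tfb1m, Tfb2m, Tfam, Polrmt, Polg, Twnk, Lrpprc, Slirp, Mrpl39 and Mrps6) were chosen by name and function, with earlier results of these data known. All 10 were found among the 55385 gene IDs counted. RNA was sequenced from the hippocampus (HIP) and the entorhinal cortex (EC) of 12 male mice aged 5 to 6 months, 6 Ts65Dn and 6 wild-type (wt) littermates, which gave 4 groups of 6 libraries. Ts65Dn mice carry a freely segregating minichromosome, so that a segment of mouse chromosome 16 (Mmu16) from Mir155 to Zbtb21 and the centromeric segment of mouse chromosome 17 (Mmu17) from Scaf8 to Pde10a are present in 3 copies. Both genotypes shared the F1 B6C3B hybrid background, in which C3B is a sighted C3H line that carries the BALB/c allele of Pde6b. The Mmu17 segment is not homologous to the human chromosome that is trisomic in Down syndrome, which limits Ts65Dn as a model of it. Of the 10 genes, Mrpl39 and Mrps6 lie in the Mmu16 segment, Tfb1m lies in the Mmu17 segment, and the other 7 are disomic.

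Mitochondria keep a small circular genome that encodes subunits of the respiratory chain, ribosomal RNAs and transfer RNAs, and every protein needed to express it is imported from the cytosol. Transcription is carried out by a dedicated RNA polymerase, POLRMT, with the DNA-bending factor TFAM and the promoter-melting factor TFB2M, while replication uses the polymerase gamma and the helicase Twinkle. The mitochondrial ribosome then reads the messages, after its small-subunit RNA has been dimethylated by TFB1M and while the LRPPRC-SLIRP complex protects the messages from decay. Brain tissue depends on oxidative phosphorylation, to which this system contributes the subunits encoded in mitochondria.

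One mouse did not match its genotype label, and this bears on every genotype comparison below. In both libraries labelled Ts65Dn replicate 3, the genes of the triplicated segments were at the wt level, with a median ratio to the wt mean of 1.01 over 129 genes in HIP and of 0.990 over 126 genes in EC. The other 5 libraries labelled Ts65Dn had medians of 1.46 to 1.53 in HIP and 1.46 to 1.51 in EC. The fit without replicate 3 is given beside the genotype results of the 10 genes. Tfb1m, Mrpl39 and Mrps6 are among the genes that set replicate 3 apart. Leaving it out therefore tends to raise their ratios and is no independent support for them. Total counts ran from 23128589 to 40476492 per library. The labelled regions fitted their markers, with 4 of 5 hippocampal neuron markers higher (the fifth was lower) and 4 of 4 cortical layer markers lower in HIP than in EC of wt mice. Markers of oligodendrocytes and of choroid plexus were also higher in HIP (3 of 3 in each list), and those of microglia, endothelium and blood were lower (3 of 3 in each list). Astrocyte markers were split, with 2 higher and 1 lower. Of the pan-neuronal and the striatal neuron markers, 2 of 3 in each list were lower and none was higher. With genotype, 1 of 3 microglial markers passed, P2ry12, a purine receptor, which was lower in Ts65Dn in HIP (log2 fold change -0.27, edgeR adjusted p = 0.0422) and in EC (-0.45, edgeR adjusted p = 0.0226), and it also passed without replicate 3. Csf1r and Cx3cr1 did not pass, at -0.01 and 0.06 in HIP and -0.12 and -0.04 in EC without replicate 3. The cortical layer marker Rorb passed only in EC without replicate 3 (-0.46, edgeR adjusted p = 0.0422). The 3 blood markers had medians of -0.35 in HIP and -0.73 in EC (-0.40 and -0.83 without replicate 3), and none of them passed. The 3 striatal neuron markers ran from 0.00488 to 0.34 in HIP and from 0.04 to 1.68 in EC, and none passed. Without replicate 3 the highest in EC was Adora2a, at 1.87 (edgeR adjusted p = 0.0585). The part of these cell types in the genotype values below was not tested. In bulk tissue, fewer cells of a type and less RNA per cell cannot be told apart.

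The genes differ in how cleanly short reads can be assigned to them, and this sets how far each value can be read. Tfb1m (ENSMUSG00000036983) lies on the minus strand at chr17:3519256-3557781 of GRCm38, Mrpl39 (ENSMUSG00000022889) on the minus strand at chr16:84717576-84735742, and Mrps6 (ENSMUSG00000039680) on the plus strand at chr16:92058270-92112227. No 50-base window of the Mrpl39 or Polrmt transcripts was shared with the exons of another gene, against 4.68% of windows for Tfb1m and 17.3% for Mrps6, whose exons overlap those of Slc5a3 and Gm49711 on the same strand. The exons of Slirp overlapped exons of the other strand over 97.8% of their length, mostly those of Snw1, which was counted at 38.9 to 51.6 CPM (counts scaled to library size) against 1.5 to 3.01 CPM for Slirp. The strand setting of the counting is not given in the sources used here, so the Slirp values are uncertain. Smaller overlaps with exons of the other strand were held by Twnk (12.6%, Mrpl43), Polg (8.57%, Fanci) and Tfb1m (3.93%, Tiam2 of the same triplicated segment). Twnk shared 12.4% and Polg 6.42% of windows with other genes, and the effect on their values was not tested. Tfb2m shared 31.9% of its windows with the gene Gm1818, which was counted at 1.76 to 3.22 CPM, and is uncertain in its absolute level.

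The promoters of the 3 triplicated genes, and of Tfam as a disomic comparison, are shown because nuclear respiratory factor 1 (NRF1) and GA-binding protein (GABP) are the classical activators of this gene system and Gabpa, the DNA-binding subunit of GABP, is itself triplicated. Each run holds the 250 bases before the RefSeq transcription start (GRCm38.p6), written on the strand of the gene, with any match to an NRF1 motif (GCGCA, any base, then GCGC) or a GABP motif (CCGGAAGT) on either strand in capitals:
Tfb1m, chr17:3557756-3558005, minus strand: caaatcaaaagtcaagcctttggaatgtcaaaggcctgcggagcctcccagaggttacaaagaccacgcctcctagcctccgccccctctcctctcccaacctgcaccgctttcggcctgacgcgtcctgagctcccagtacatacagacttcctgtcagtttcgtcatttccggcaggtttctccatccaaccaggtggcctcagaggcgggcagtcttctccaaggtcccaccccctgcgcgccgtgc
Mrpl39, chr16:84735245-84735494, minus strand: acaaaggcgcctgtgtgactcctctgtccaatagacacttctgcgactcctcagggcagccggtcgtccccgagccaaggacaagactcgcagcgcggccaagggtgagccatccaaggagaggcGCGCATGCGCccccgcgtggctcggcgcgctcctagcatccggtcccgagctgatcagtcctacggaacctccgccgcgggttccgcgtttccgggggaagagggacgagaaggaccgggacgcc
Mrps6, chr16:92058086-92058335, plus strand: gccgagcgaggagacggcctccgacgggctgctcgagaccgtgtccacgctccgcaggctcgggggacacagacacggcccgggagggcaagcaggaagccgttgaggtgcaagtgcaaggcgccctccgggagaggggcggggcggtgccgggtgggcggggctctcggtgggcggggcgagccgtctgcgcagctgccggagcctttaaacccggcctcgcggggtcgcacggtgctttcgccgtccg
Tfam, chr10:71238045-71238294, minus strand: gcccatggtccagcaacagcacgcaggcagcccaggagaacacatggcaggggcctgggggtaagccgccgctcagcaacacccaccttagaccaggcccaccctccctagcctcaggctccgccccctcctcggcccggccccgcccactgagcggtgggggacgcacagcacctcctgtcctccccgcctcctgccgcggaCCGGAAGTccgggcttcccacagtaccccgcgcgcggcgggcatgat

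The Mrpl39 promoter held 1 NRF1 match, which began at position -125 from the start. Tfam held 1 GABP match, at -47, and the windows of Tfb1m and Mrps6 held neither motif. Over windows that also take in the first 50 bases of the transcript, 4.60% of 32851 RefSeq promoters held the NRF1 motif and 3.89% held the GABP motif. Among the other members, Polrmt held the NRF1 motif across its start, and Polg held the GABP motif at -38. Twnk held it at -111 of the second of its starts, while Tfb2m, Lrpprc and Slirp held neither. A match describes the letters only, and a window without one says nothing about the binding of either factor.

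Tfb1m, the Mmu17 gene for the methyltransferase that modifies the small mitoribosomal RNA, was higher in Ts65Dn than in wt HIP. Its level in wt HIP ran from 3.69 to 5.00 CPM with a median of 4.45, and in Ts65Dn HIP from 4.85 to 7.98 CPM with a median of 6.71. In EC the wt libraries ran from 4.98 to 6.02 CPM (median 5.41) and the Ts65Dn libraries from 4.99 to 8.96 CPM (median 8.23). The groups overlapped in both regions, and the lowest Ts65Dn value was that of replicate 3 each time. The log2 fold change was 0.62 (SE 0.12, n = 6 per group) in HIP, a ratio of 1.53 (95% CI 1.28 to 1.84), which passed the test (edgeR adjusted p = 0.0299). In EC it was 0.49 (SE 0.13), a ratio of 1.41 (95% CI 1.17 to 1.70), which did not pass (edgeR adjusted p = 0.0552). Without replicate 3 the remaining 5 Ts65Dn libraries held 6.51 to 7.98 CPM in HIP and 7.29 to 8.96 CPM in EC, all above every wt library. The ratio was then 1.62 in HIP (95% CI 1.39 to 1.89, edgeR adjusted p = 0.00282) and 1.51 in EC (95% CI 1.32 to 1.72, edgeR adjusted p = 0.00233). At 109 to 268 counts per library this is among the less deeply counted members. The HIP call with all 6 libraries held in 2 of the 12 fits that left out 1 library, those without Ts65Dn replicate 3 or wt replicate 1 (edgeR adjusted p = 0.0425), and the other 10 gave edgeR adjusted p = 0.0514 to 0.0732.

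**Figure D1:**
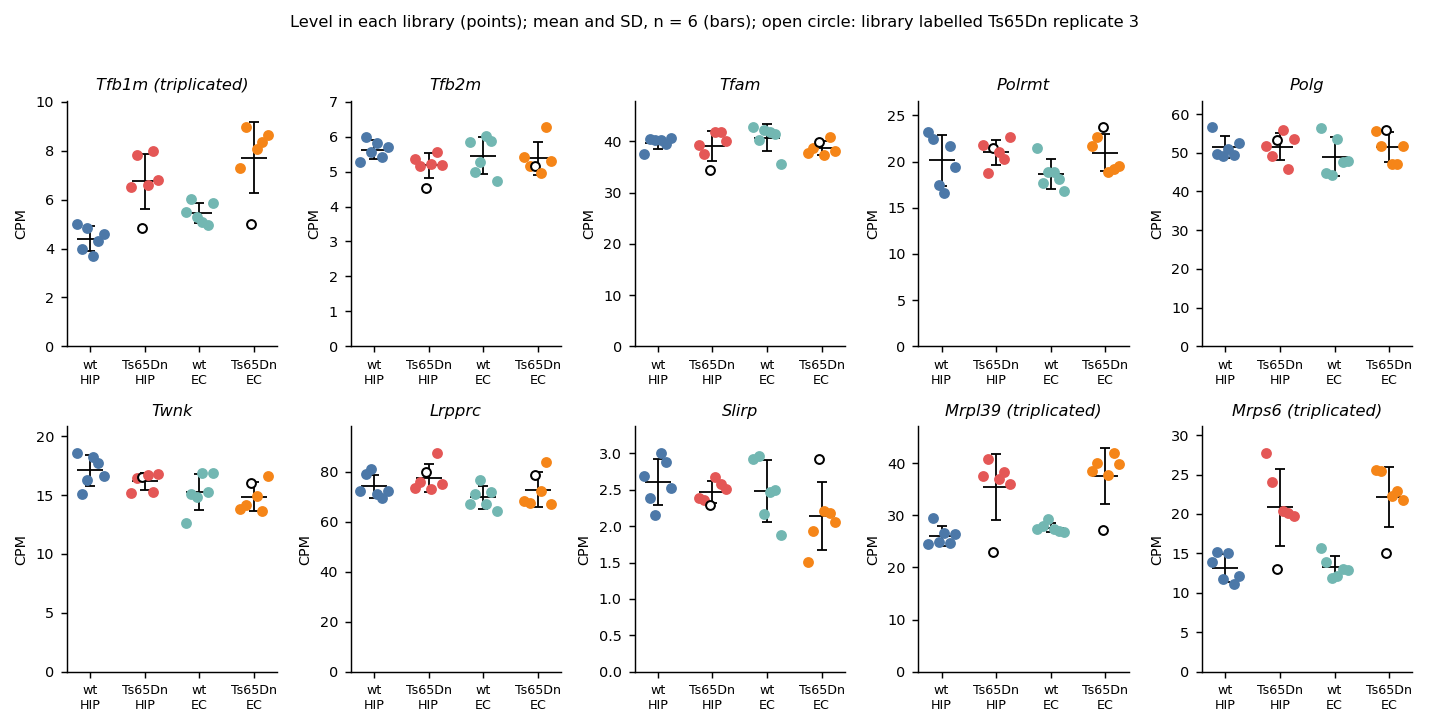
Level of each of the 10 genes in CPM (vertical axes from 0) in every library of wt and Ts65Dn mice in HIP and EC; points are libraries, bars the mean and SD (n = 6), and open circles the libraries labelled Ts65Dn replicate 3. For Tfb1m, Mrpl39 and Mrps6 the 5 filled Ts65Dn points lie above all wt points of the same region, while the groups overlap for the other 7 genes.

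Mrpl39, a protein of the large mitoribosomal subunit encoded on Mmu16, had the smallest spread in wt mice of the triplicated members. Its level in wt HIP ran from 24.5 to 29.4 CPM with a median of 25.6, and in Ts65Dn HIP from 23.0 to 40.9 CPM with a median of 37.2. In EC the wt libraries ran from 26.7 to 29.2 CPM (median 27.4) and the Ts65Dn libraries from 27.1 to 42.0 CPM (median 39.2). Here too the group ranges overlapped only through replicate 3, which held 23.0 CPM in HIP and 27.1 CPM in EC. The ratio was 1.35 in EC (95% CI 1.19 to 1.54, log2 fold change 0.43, SE 0.09), which passed the test (edgeR adjusted p = 0.0226). In HIP it was 1.36 (95% CI 1.15 to 1.60, log2 fold change 0.44, SE 0.11), which did not (edgeR adjusted p = 0.0813). Without replicate 3 the ratio was 1.45 in HIP (95% CI 1.33 to 1.58, edgeR adjusted p = 0.00018) and 1.43 in EC (95% CI 1.33 to 1.53, edgeR adjusted p = 5.23e-05). The EC call was lost when Ts65Dn replicate 1, 2 or 4 or wt replicate 4 or 5 was left out, with edgeR adjusted p = 0.0512 to 0.0590.

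Mrps6, a protein of the small mitoribosomal subunit encoded on Mmu16, showed the largest ratio of the 10 genes in both regions. Its level in wt HIP ran from 11.1 to 15.2 CPM with a median of 13.0, and in Ts65Dn HIP from 13.1 to 27.8 CPM with a median of 20.3. In EC the wt libraries ran from 11.9 to 15.7 CPM (median 13.0) and the Ts65Dn libraries from 15.1 to 25.5 CPM (median 22.6). Only replicate 3 overlapped the wt range in either region. The ratio was 1.66 in EC (95% CI 1.40 to 1.97, log2 fold change 0.73, SE 0.12), which passed the test (edgeR adjusted p = 0.00726) and did so in all 12 fits that left out 1 library. In HIP it was 1.58 (95% CI 1.27 to 1.96, log2 fold change 0.66, SE 0.15), which missed the threshold (edgeR adjusted p = 0.0502). Without replicate 3 the ratio was 1.69 in HIP (95% CI 1.43 to 2.00, edgeR adjusted p = 0.00269) and 1.77 in EC (95% CI 1.57 to 1.99, edgeR adjusted p = 5.78e-05). Slc5a3, which shares exonic bases with Mrps6 and is also triplicated, was counted at 39.4 to 54.7 CPM in wt EC and 35.8 to 62.3 CPM in Ts65Dn EC. With all libraries, replicate 3 included, it had a log2 fold change of 0.21 in HIP and 0.23 in EC. Neither passed the test (edgeR adjusted p = 0.364 and 0.306). The part of shared reads in the Mrps6 ratio was not tested.

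Counted over the 10 genes, 1 passed the test in HIP, where 1.04% of 17355 tested genes did (0.542% higher), and 2 passed in EC, where 2.50% of 17049 did (1.15% higher). All were triplicated and higher in Ts65Dn. Without replicate 3 the count was 3 in HIP (1.82% of all tested genes) and 3 in EC (2.79%), and the same 3 genes had groups that did not overlap in each region (2.03% of genes in HIP and 2.31% in EC, higher direction). DESeq2 called these 3 genes in both regions with all libraries (3.81% of genes in HIP and 6.69% in EC). With all libraries no member had groups that did not overlap (0.680% in HIP and 1.27% in EC, higher direction). Set against the 1.5-fold that 3 copies in place of 2 would give, the 95% intervals of the 3 genes held 1.5 in both regions with all libraries. Without replicate 3 they held it in all but Mrps6 in EC, whose interval lay above. Replicate 3 was set aside on genes that include these 3, so results without it are not independent of that choice. Among the tested genes of both segments, the median ratio was 1.41 in HIP (129 genes, 53 higher by the test) and 1.41 in EC (126 genes, 57 higher). Without replicate 3 the medians were 1.47 and 1.48, with 75 of 131 and 81 of 129 genes higher.

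**Figure D2:**
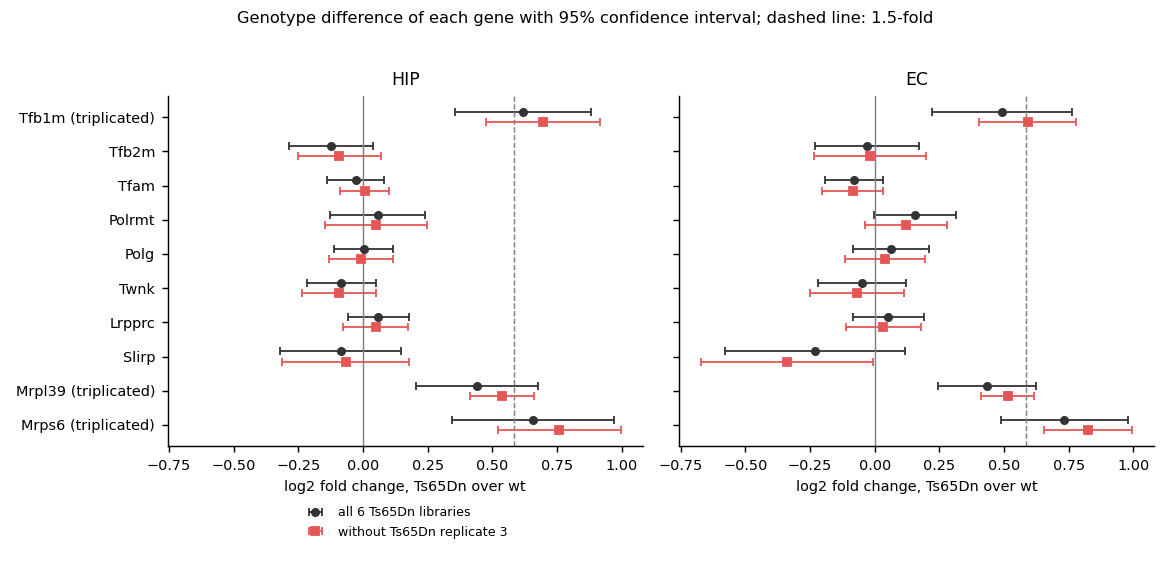
Log2 fold change of Ts65Dn over wt for each gene in HIP (left) and EC (right), with 95% confidence intervals, from the fit with all 6 Ts65Dn libraries (circles) and the fit without replicate 3 (squares); the dashed line marks 1.5-fold. The 3 triplicated genes lie to the right of 0 in both regions and the 7 disomic genes lie around it.

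The genes whose profile over the 24 libraries was most like that of a triplicated member were themselves triplicated. Triplicated genes share their copy number over the same libraries, so such a result was largely set in advance by the design. Likeness was taken as the mean absolute difference of log2 CPM after centring each gene on its own mean, over 16591 genes. For Tfb1m the nearest genes were Wrb (0.103), Jam2 (0.106) and Dyrk1a (0.109), all on Mmu16, against a median of 0.372 over all genes compared. For Mrpl39 they were Cryzl1 (0.0643), Dyrk1a (0.0650) and Ifnar1 (0.0749), against a median of 0.322. For Mrps6 they were Rwdd2b (0.130), Serac1 (0.138), which lies on Mmu17, and Wrb (0.139), against a median of 0.422.

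The mitochondrial transcription machinery proper did not pass the test with genotype in either region. Polrmt, the RNA polymerase, ran from 16.6 to 23.2 CPM in wt HIP (median 20.6) and from 18.8 to 22.7 CPM in Ts65Dn HIP (median 21.3), with a log2 fold change of 0.06 (95% CI -0.13 to 0.24). In EC it ran from 16.8 to 21.5 CPM in wt (median 18.5) and from 18.9 to 23.7 CPM in Ts65Dn (median 20.6), with a log2 fold change of 0.16 (95% CI -0.00104 to 0.32, edgeR adjusted p = 0.266). The Ts65Dn and wt ranges overlapped in both regions, and the highest EC value was that of replicate 3. Tfb2m, the paralogue of Tfb1m that melts the promoter, ran from 5.26 to 6.00 CPM in wt HIP (median 5.63) and from 4.54 to 5.57 CPM in Ts65Dn HIP (median 5.21). It had a log2 fold change of -0.13 (95% CI -0.29 to 0.04) in HIP and of -0.03 (95% CI -0.23 to 0.17) in EC. Tfam, which packages mitochondrial DNA and bends it at the promoters, had the tightest values of the set in wt HIP, from 37.5 to 40.6 CPM (median 40.3), against 34.4 to 41.9 CPM (median 39.7) in Ts65Dn HIP. Its log2 fold change was -0.03 (95% CI -0.14 to 0.08) in HIP and -0.08 (95% CI -0.19 to 0.03) in EC, so a change of the size seen for Tfb1m lay outside the interval in both regions. The fit without replicate 3 gave log2 fold changes in HIP and EC of 0.05 and 0.12 for Polrmt, -0.09 and -0.02 for Tfb2m, and 0.00586 and -0.09 for Tfam, and none passed.

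Neither replication gene passed the test with genotype. Polg, the catalytic subunit of polymerase gamma, ran from 49.0 to 56.6 CPM in wt HIP (median 50.4) and from 45.8 to 56.0 CPM in Ts65Dn HIP (median 52.6), with a log2 fold change of 0.00258 (95% CI -0.11 to 0.12). In EC its log2 fold change was 0.06 (95% CI -0.09 to 0.21), with 44.2 to 56.4 CPM in wt and 47.1 to 55.9 CPM in Ts65Dn. Twnk, the Twinkle helicase, ran from 15.1 to 18.6 CPM in wt HIP (median 17.2) and from 15.2 to 16.8 CPM in Ts65Dn HIP (median 16.5). Its log2 fold change was -0.08 (95% CI -0.22 to 0.05) in HIP and -0.05 (95% CI -0.22 to 0.12) in EC, and the ranges of the genotypes overlapped in both regions. With replicate 3 left out, the values in HIP and EC were -0.00864 and 0.04 for Polg and -0.09 and -0.07 for Twnk, and again none passed.

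The messages' protective complex gave 1 well-measured gene and 1 uncertain one. Lrpprc, the RNA-binding subunit that keeps mitochondrial messages stable, had the highest counts of the 10 genes (1538 to 3332 per library) and ran from 69.7 to 81.1 CPM in wt HIP (median 72.5) and from 73.3 to 87.7 CPM in Ts65Dn HIP (median 75.5). Its log2 fold change was 0.06 (95% CI -0.06 to 0.18) in HIP and 0.05 (95% CI -0.09 to 0.19) in EC, and 0.05 and 0.03 without replicate 3. Slirp, its partner, had the fewest counts (45 to 101 per library) and log2 fold changes of -0.09 (95% CI -0.32 to 0.15) in HIP and -0.23 (95% CI -0.58 to 0.12) in EC. The value of Slirp without replicate 3 was -0.07 in HIP and -0.34 in EC (edgeR adjusted p = 0.254). The libraries labelled Ts65Dn held 1.5 to 2.93 CPM of it in EC, with replicate 3 the highest, against 1.88 to 2.96 CPM in wt.

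Per length, the levels in wt mice spanned from Lrpprc to Slirp. Slirp and Tfb2m are uncertain in level, as given above, and so are their places in the order. On the scale of CPM per kilobase of the principal transcript, Lrpprc stood at 16.9 ± 1.05 (SD, n = 6) in wt HIP, Mrps6 at 15.6 ± 2.07, Mrpl39 at 11.4 ± 0.824 and Tfam at 9.55 ± 0.281. These were followed by Polg at 6.56 ± 0.361, Polrmt at 5.37 ± 0.729, Twnk at 4.90 ± 0.383, Tfb1m at 3.14 ± 0.360, Tfb2m at 2.30 ± 0.110 and Slirp at 0.967 ± 0.117. The order was the same in wt EC. Ranges overlapped between Lrpprc and Mrps6 and between Polrmt and Twnk in wt HIP, and the ranges of the other neighbours did not. In both regions of Ts65Dn mice, Mrps6 came first and Tfb1m stood above Twnk, with ranges that overlapped those of the next gene. Without replicate 3, Mrps6 ran from 23.3 to 32.8 in HIP and from 25.8 to 30.2 in EC and no longer overlapped Lrpprc (16.7 to 19.96 and 15.3 to 19.1). Tfb1m, at 5.20 to 6.39 in EC, then lay wholly above Twnk (3.90 to 4.75), and in HIP it still overlapped it (4.65 to 5.69 against 4.36 to 4.81). The order depends on the length used, since over the summed exon length Mrpl39 came first in all 4 groups and Tfb1m fell below Tfb2m in wt mice.

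Between the regions, Tfb1m was the member that differed most consistently. It was lower in HIP than in EC of the same mouse in 6 of 6 wt and in 6 of 6 Ts65Dn mice. In wt mice the log2 difference of HIP over EC was -0.32 (SE 0.08), a ratio of 0.803 (95% CI 0.713 to 0.905), which passed the test (edgeR adjusted p = 0.00326). With single mice removed it passed each time (12 fits, highest edgeR adjusted p = 0.0183). In Ts65Dn mice it was -0.19 (SE 0.08), which missed the threshold (edgeR adjusted p = 0.0503), and without replicate 3 it was -0.21 (edgeR adjusted p = 0.0434). Twnk was higher in HIP than in EC of wt mice, with a log2 difference of 0.16 (SE 0.07, edgeR adjusted p = 0.0432) and in 4 of 6 wt and 6 of 6 Ts65Dn mice. With single mice removed this call held in 5 fits out of 12 (edgeR adjusted p = 0.0275 to 0.192, the highest without wt replicate 1). The 5 were those without wt replicate 2 or 6 or Ts65Dn replicate 2, 3 or 6. The Twnk call was lost in DESeq2, with DESeq2 size factors and with no filter on low counts. It was also lost with GC content and length modelled and with no term for the mouse, and held with at least 10 counts in every sample. Lrpprc was higher in HIP in 5 of 6 wt and 6 of 6 Ts65Dn mice, by 0.09 on the log2 scale in each genotype, and passed only in Ts65Dn (edgeR adjusted p = 0.0487 against 0.0503 in wt). Its adjusted p crossed the threshold with single mice left out, from 0.0205 to 0.147 in wt and from 0.0385 to 0.138 in Ts65Dn by edgeR, and its log2 difference was -0.01 in both genotypes once GC content and length were modelled. Slirp, at 0.23 in Ts65Dn mice (edgeR adjusted p = 0.161), passed only without replicate 3, at 0.35 (edgeR adjusted p = 0.0342). Mrpl39 was lower in HIP in 5 of 6 mice of each genotype, at -0.09 in both. It did not pass (edgeR adjusted p = 0.147 in wt and 0.122 in Ts65Dn), but did in both genotypes once GC content and length were modelled. The count of members that passed, 2 of 10 in wt and 1 of 10 in Ts65Dn, stands against 58.6% and 56.5% of 18109 tested genes. Without replicate 3 it was 3 in each, against 59.7% and 52.0%.

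**Figure D3:**
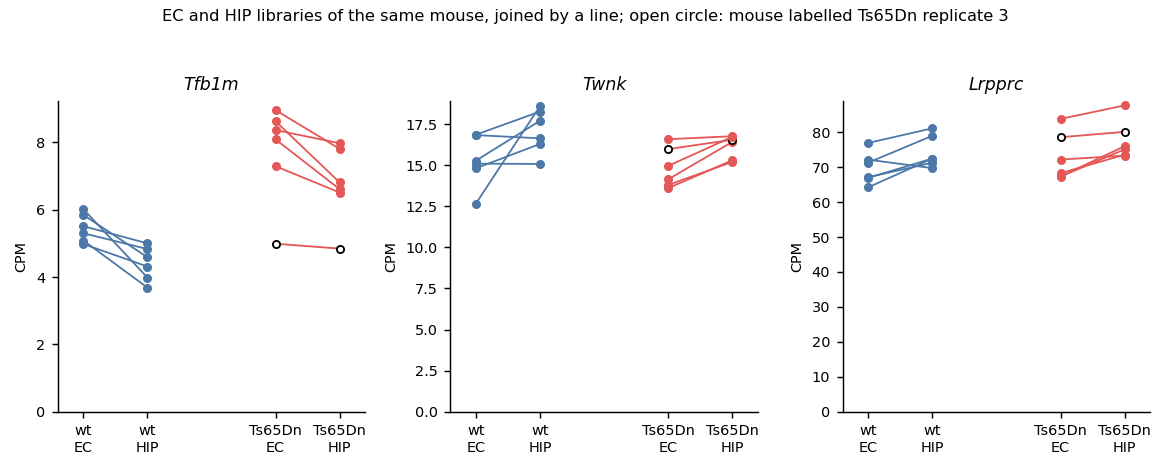
Level of Tfb1m, Twnk and Lrpprc in CPM (vertical axes from 0) in the EC and HIP of each mouse, joined by a line, for 6 wt (blue) and 6 Ts65Dn (red) mice; open circles mark replicate 3. Every Tfb1m line falls from EC to HIP, in 6 of 6 mice of each genotype.

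The genotype difference itself did not differ between the regions by the test for any member, with 0 of 10 called against 0.00% of 18109 genes (742 genes at an unadjusted p under 0.05 and 0 genes called by DESeq2). The log2 difference between the HIP and EC genotype effects was 0.13 for Tfb1m (95% CI -0.11 to 0.37), -0.00504 for Mrpl39 (95% CI -0.15 to 0.14) and -0.09 for Mrps6 (95% CI -0.29 to 0.12). Among the other 7 genes it ran from -0.10 to 0.15, with Slirp the highest. Without replicate 3 none was called either (0.00% of 18220 genes), and the values were 0.10 for Tfb1m, 0.02 for Mrpl39 and -0.07 for Mrps6, with the other 7 between -0.08 and 0.27, Slirp again the highest.

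The wider system was read through 7 lists of nuclear and mitochondrial genes, from which the 10 members were left out. Among 31 genes of mitochondrial DNA transcription, replication and RNA processing, none passed in HIP and 1 of 30 tested passed in EC, where the median log2 fold change was -0.02 in a background median of 0.00463 over all genes. This was Fastkd5, which is needed to mature some mitochondrial messages, at 4.21 to 5.86 CPM in Ts65Dn EC against 6.02 to 7.23 CPM in wt EC. Its log2 fold change was -0.47 (SE 0.10, edgeR adjusted p = 0.0302), and the call held in 3 of the 12 fits that left out 1 library. The 3 were those without Ts65Dn replicate 3 or 6 or wt replicate 2, and edgeR adjusted p ranged from 0.0138 to 0.0781 over the 12. It was also lost with no filter on low counts, with GC content and length modelled and with the replicate block. In HIP its log2 fold change was -0.37 (edgeR adjusted p = 0.124). Without replicate 3 Fastkd5 remained the only called gene of this list (-0.53 in EC, edgeR adjusted p = 0.0138), and none passed in HIP.

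None of the 8 nuclear regulators passed with genotype in the edgeR fit of all libraries without a GC or length term. Gabpa was the only triplicated one. With all libraries it did pass in EC by DESeq2 and by edgeR with GC content and length modelled, but not in HIP under any alternative. Gabpa ran from 31.1 to 36.9 CPM in wt HIP and from 31.8 to 53.1 CPM in Ts65Dn HIP, and from 22.3 to 23.7 CPM in wt EC and 19.3 to 33.5 CPM in Ts65Dn EC. Its log2 fold change was 0.32 (SE 0.11, edgeR adjusted p = 0.175) in HIP and 0.38 (SE 0.11, edgeR adjusted p = 0.0849) in EC. Without replicate 3 it was 0.39 in HIP (edgeR adjusted p = 0.0502) and 0.47 in EC (edgeR adjusted p = 0.000373), so that it passed in EC. Nrf1, which binds many promoters of this system, had log2 fold changes of 0.02 in HIP and -0.00571 in EC, and the coactivator Ppargc1a had -0.01 and -0.13. Gabpb1, Gabpb2, Esrra, Ppargc1b and Pprc1 had log2 fold changes of -0.21 to 0.05 in HIP and of -0.14 to 0.05 in EC. Without replicate 3 Gabpb2, a partner subunit of Gabpa, was lower in HIP, at 17.2 to 20.01 CPM in 5 Ts65Dn libraries against 21.3 to 23.4 CPM in wt (log2 fold change -0.30, edgeR adjusted p = 0.0208). With all libraries it was -0.21 (edgeR adjusted p = 0.285), and replicate 3 held 25.3 CPM.

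The ribosomal proteins outside the triplicated segments had list medians near 0 and a wide spread of single genes. Of 47 tested genes of the large mitoribosomal subunit, 1 was lower in HIP and none passed in EC, with medians of -0.02 and 0.03. The 1 gene was Mrpl33, a structural protein of that subunit, at 12.3 to 14.7 CPM in Ts65Dn HIP against 15.7 to 16.9 CPM in wt HIP (log2 fold change -0.30, SE 0.06, edgeR adjusted p = 0.0269). Its call held in 5 of the 12 fits that left out 1 library and was lost without Ts65Dn replicate 2, 4 or 6 or wt replicate 2, 3, 5 or 6 (highest edgeR adjusted p = 0.0662), and also with no filter on low counts, with GC content and length modelled and with the replicate block. Without replicate 3 it was again the only called gene of the list (-0.30 in HIP, edgeR adjusted p = 0.0241). None of 31 genes of the small subunit passed in either region (medians 0.03 and 0.03), with or without replicate 3. Their log2 fold changes ran from -0.21 to 0.46 in HIP and from -0.26 to 0.61 in EC. The highest in both was Mrps34, at 5.55 to 12.0 CPM in Ts65Dn EC against 2.50 to 7.62 CPM in wt EC (log2 fold change 0.61, SE 0.24, edgeR adjusted p = 0.183), with ranges that overlapped. Without replicate 3 Mrps34 was at 0.40 in HIP and 0.48 in EC (edgeR adjusted p = 0.531 and 0.292). With all libraries none passed among 21 translation factors (medians -0.00397 and 0.00684) or 17 mitochondrial aminoacyl-tRNA synthetases (medians -0.00863 and 0.0081). The translation factor Guf1 was lower in HIP without replicate 3 (-0.28, edgeR adjusted p = 0.0214), at 17.9 to 20.1 CPM against 20.8 to 24.3 CPM in wt, and no other gene of these lists passed.

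The 13 messages encoded by mitochondrial DNA itself had log2 fold changes below 0 in both regions, 13 of 13 in HIP (median -0.28) and 13 of 13 in EC (median -0.44). Of these, 1 passed in HIP and 2 in EC, and without replicate 3 it was 1 and 3 (medians -0.28 and -0.45). They fall into 7 messages counted at 1123 to 7838 CPM in wt HIP and 6 counted at 0.868 to 10.3 CPM. Messages of this genome have near-identical nuclear copies with which short reads can be shared, so the low 6 are uncertain. The medians take in all 13. Without replicate 3 the abundant 7 ran from -0.28 to -0.06 in HIP and from -0.57 to -0.23 in EC. The low 6 lay further from 0 in HIP, from -1.16 to -0.40, and ran from -1.53 to -0.39 in EC. The one abundant message that passed in EC was mt-Nd1, a subunit of complex I, which held 5476 to 8465 CPM in Ts65Dn EC against 7573 to 12276 CPM in wt EC (log2 fold change -0.57, SE 0.12, edgeR adjusted p = 0.0236). Its call was lost without Ts65Dn replicate 1, 2 or 4 or wt replicate 4 or 5 (highest edgeR adjusted p = 0.0662) and also with GC content and length modelled and with the replicate block. Without replicate 3 it was -0.57 (edgeR adjusted p = 0.0302). In HIP its log2 fold change was -0.28 (edgeR adjusted p = 0.182). The other called message was mt-Atp6, a subunit of ATP synthase among the low 6, with log2 fold changes of -0.57 in HIP (edgeR adjusted p = 0.0464) and -0.94 in EC (edgeR adjusted p = 0.0174). Without Ts65Dn replicate 1 its EC call was lost (edgeR adjusted p = 0.0531), and its HIP call held in 2 of 12 such fits (highest edgeR adjusted p = 0.114). Both calls were lost with GC content and length modelled, and the HIP call also with no filter on low counts. Without replicate 3 its values were -0.59 and -0.86 (edgeR adjusted p = 0.0446 and 0.0220). The message that passed in EC only without replicate 3 was mt-Atp8, another ATP synthase subunit whose reading frame overlaps that of mt-Atp6, at 0.0660 to 0.371 CPM against 0.334 to 0.945 CPM in wt (log2 fold change -1.53, edgeR adjusted p = 0.0334). Most of these messages are cut from shared long transcripts and all were read from the same libraries, so they are not separate observations.

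**Figure D4:**
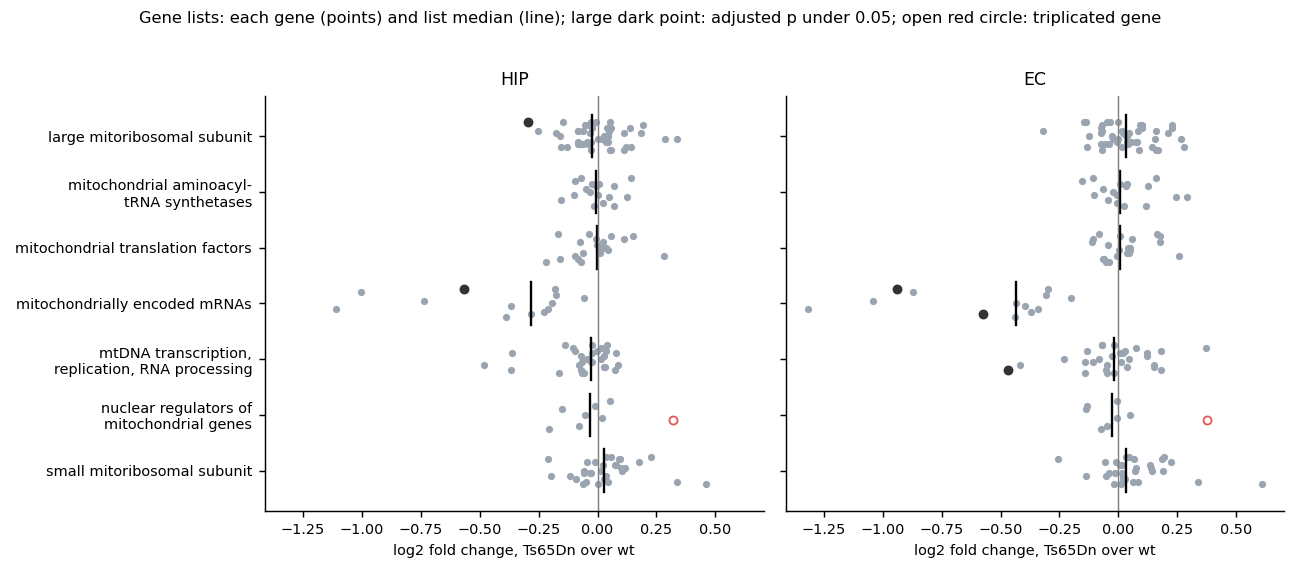
Log2 fold change of Ts65Dn over wt in HIP (left) and EC (right) for every tested gene of the 7 lists (points) with all libraries, and with the list median as a vertical line; large dark points passed the test and the open red circle is the triplicated Gabpa. The medians of the nuclear lists lie near 0, and that of the 13 mitochondrially encoded messages at -0.28 in HIP and -0.44 in EC. The latter takes in 6 messages of low level whose values are uncertain.

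Of all list genes, 80 passed between the regions in wt mice, a comparison within mice, against 2 with genotype in HIP and 3 in EC. The 7 lists held 31, 8, 47, 31, 21, 17 and 13 tested genes in HIP. Over all tested genes, 58.6% passed between the regions in wt mice, 1.04% with genotype in HIP and 2.50% in EC. The genotype counts are not read as a property of the lists. In wt mice, 18 of 31 genes of mitochondrial DNA transcription, replication and RNA processing were higher in HIP than in EC and 2 were lower, with Mterf1b, a termination factor (log2 difference 0.99, edgeR adjusted p = 0.00337), and Primpol, a primase-polymerase (0.78, edgeR adjusted p = 3.1e-05), the widest. Of the 8 regulators 5 were higher and none lower, among them Gabpb2 (1.16, edgeR adjusted p = 5.38e-08) and Gabpa (0.57, edgeR adjusted p = 8.39e-07), which encode subunits of GABP. Gabpb1, which encodes another of its subunits, did not pass (0.03, edgeR adjusted p = 0.644). Of the ribosomal proteins, 13 of 47 large-subunit genes were lower in HIP (27.7%) and 5 higher (10.6%), and 11 of 31 small-subunit genes were lower (35.5%) and 1 higher (3.23%). The share of large-subunit genes that were lower lay near that of all tested genes, of which 28.3% were lower and 30.3% higher. Mrpl16 (-0.63, edgeR adjusted p = 2.88e-08), Mrpl14 (-0.48, edgeR adjusted p = 2.42e-05) and Mrps18b (-0.34, edgeR adjusted p = 0.00392) were lower, and Mrps9 was higher (0.34, edgeR adjusted p = 0.000177). Translation factors were split, 5 higher and 7 lower, with the ribosome-associated GTPase Guf1 at 0.61 (edgeR adjusted p = 6.34e-06) and the rRNA methyltransferase Mrm1 at -0.64 (edgeR adjusted p = 3.28e-06). Among the synthetases 1 was higher and 3 lower, with Lars2 at -0.39 (edgeR adjusted p = 0.00257) and Fars2 at -0.34 (edgeR adjusted p = 0.000295). Of the 13 mitochondrial messages 9 were lower and none higher, with mt-Nd1 at -0.54 (edgeR adjusted p = 2.81e-06) and mt-Cytb at -0.50 (edgeR adjusted p = 1.75e-05). All of these counts stand against the 58.6% of tested genes that differed between the regions in wt mice, and the cell-type markers given above moved with region as well, whose part in these differences was not tested.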

How the data were processed

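RNA was sequenced as single-end 50-base reads. The authors aligned the reads with Hisat2 to GRCm38 and counted them per Ensembl gene with HTSeq-count, and the deposited values are raw counts for 55385 gene IDs in 24 libraries. The labels describe a poly-A kit and the methods a ribosomal depletion kit, both stranded, and the strand setting of the counting is not given in the sources used here. Deposited tables of the authors' fold changes and p-values were not used.

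Counts were tested with edgeR 4.0.16 in R 4.3.3 (filterByExpr, TMM, quasi-likelihood test, two-sided, Benjamini-Hochberg adjusted p under 0.05 over all genes tested). Genotype was tested within each region. Region and interaction were tested over all libraries with a term for each mouse, since the titles give the mouse number (correlation of deviations 0.178 to 0.426 within mice). CPM used TMM library sizes. P-values of the genotype tests measure the spread between mice. Those of the region and interaction tests measure how the difference between HIP and EC of a mouse varies over the mice. Alternatives were DESeq2 1.42.0, DESeq2 size factors, other count filters, GC content and length as spline terms, a replicate block, and leaving out each mouse in turn. Scripts were tested on simulated data. The intervals of fold changes come from the edgeR fit.

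Of the IDs, 99.6% matched GENCODE vM21, which gave exons and lengths, and promoters came from RefSeq. The 10 genes and the lists were chosen with earlier results of these data known. Named are the 10 genes, all nuclear regulators, any triplicated list gene, the called genes of the genotype contrasts, and the 2 widest called genes of each list between regions. Levels per summed exon length, list medians and group overlap without Ts65Dn replicate 3 were added after seeing the data, and Guf1 and mt-Atp8 with genotype, Mrps34 and the single cell-type markers were named after their values were seen.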

Additional observations from a re-analysis of the deposited data

Results flagged for a closer look

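Of 40 groups of 6 libraries (10 genes in 4 groups), 6 held a library whose gap to its nearest neighbour exceeded Dixon's 95% critical share of the range of the group, where chance gives about 1 in 20 groups. The libraries labelled Ts65Dn replicate 3 account for 3 of the 6, with Mrpl39 at 23.0 CPM in HIP and 27.1 CPM in EC, and Mrps6 at 15.1 CPM in EC, each the lowest of its group and near the wt level. The nearest other library held 36.1, 37.8 and 21.8 CPM in turn. Tfam was lowest in wt EC replicate 6, at 35.6 CPM against 40.3 CPM in the next library, and in wt HIP replicate 1, at 37.5 CPM against 39.6 CPM. Tfb2m was highest in Ts65Dn EC replicate 5, at 6.27 CPM against 5.41 CPM. The part of any cause in these values was not tested.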

How the results depend on the processing

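Tfb1m was counted at 109 to 268 and Slirp at 45 to 101 counts per library, which limits the precision of both. DESeq2 called 3 members in HIP and 3 in EC, with 662 and 1141 genes in all and 6 and 12 list genes, and 1 member between regions in wt and 0 in Ts65Dn. No filter gave 2 members and 0 list genes in HIP, 275 genes in EC, 1 and 0 members between regions, and 37 genes for the interaction. At least 10 counts in every sample gave 2 members in HIP and 2 between regions in Ts65Dn, and DESeq2 size factors gave 1 in wt.

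Modelling GC content and length gave 79 genes in HIP and 132 in EC (60.8% and 61.4% higher, against 51.9% and 46.0%), 0 and 1 list genes, and 2 members between regions in Ts65Dn. It turned the log2 fold change of Tfam (0.0091), Polrmt (-0.0587) and Polg (-0.0431) in HIP and of Tfb2m (0.0539) in EC. It also turned the region difference of Tfb2m (-0.023), Lrpprc (-0.012), Slirp (-0.0018) and Mrps6 (0.0215) in wt and of Tfam (-0.0848), Polg (-0.03) and Lrpprc (-0.0081) in Ts65Dn. Near 0 in Ts65Dn, the region difference of Polrmt was -0.0004 with DESeq2, -0.0003 with its size factors and -0.0016 with no filter, and that of Polg was -0.0042, -0.0039 and -0.0053, and -0.0001 with at least 10 counts. The interaction of Lrpprc was -0.0087 with no filter. None of these passed a test, and the cause was not tested.

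The replicate numbers do not pair wt with Ts65Dn mice (correlations -0.198 to 0.166, 2 of 12 wt libraries closest to their own number). With the replicate block, 0 members, 1 list gene and 29 genes were called in HIP and 1, 1 and 36 in EC. With no replicate block for the mouse, 1 member was called between regions in wt and 0 in Ts65Dn, and the interaction of Mrpl39 was 0.0008.

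Leaving out 1 library gave 0 to 3 members, 0 to 4 list genes and 54 to 318 genes in HIP, and 1 to 3, 0 to 5 and 90 to 685 in EC. Leaving out 1 mouse gave 1 to 3 members between regions in wt and 0 to 3 in Ts65Dn. In these fits the sign turned, always with no call, for Tfam (-0.0469 to 0.0059) and Polg (-0.0198 to 0.0354) in HIP and Tfb2m (-0.0802 to 0.0007) in EC. It turned between regions for Tfam (-0.0744 to 0.0005) and Mrps6 (-0.076 to 0.0312) in wt and for Tfam (-0.024 to 0.0557), Polrmt (-0.0359 to 0.0621) and Polg (-0.0515 to 0.0235) in Ts65Dn. It turned in the interaction for Twnk (-0.0763 to 0.0347), Lrpprc (-0.0272 to 0.0265) and Mrpl39 (-0.0348 to 0.0281).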
